A study of Homo sapiens with 6 samples.

Results

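The spliceosome is built from small nuclear ribonucleoproteins (snRNPs), particles that each hold a small nuclear RNA and a set of proteins, and the genes for the core of these particles are described here in A549, a human lung adenocarcinoma line. Members were the gene symbols of the families SNRPA to SNRPG, SNRNP, SF3A and SF3B, PRPF and LSM, without pseudogenes or antisense symbols, which gave 52 genes of 17787 symbols listed in any library. RNA was sequenced from 3 libraries titled siFOXD3, after a small interfering RNA against the forkhead factor FOXD3, and from 3 titled siNC, whose genotype is given as wild type and which were taken as the controls. What siNC stands for is not written out, and no other allele, agent, dose or time is named. They also do not say whether the 3 libraries of a group came from separate cultures, so the p-values rest on the spread between the libraries, and that spread may be technical. The comparison of siFOXD3 with siNC asks how these genes differed when FOXD3 was targeted.

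Splicing removes introns in a cycle in which the U1 snRNP binds the start of an intron, U2 binds the branch point with the help of the SF3a and SF3b protein complexes, and the U4/U6.U5 tri-snRNP joins and is rearranged into the catalytic form. A ring of Sm proteins sits on the RNA of U1, U2, U4 and U5, and a related ring of LSM proteins sits on U6. A minor spliceosome with U11 and U12 in place of U1 and U2 removes a rare class of introns, other LSM proteins work in the cytoplasm or on histone messages, and dividing carcinoma cells express most of the core genes at moderate to high levels.

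Levels are FPKM, in which fragments are scaled for library size and transcript length. Each library summed to between 596623 and 618389 FPKM, and depth, estimated from the spacing of low values with an assumed fragment length of 150 bases, lay between 7550000 and 8760000 fragments. FOXD3 was listed at 0.134 to 0.291 FPKM in siNC, at 0.0749 FPKM in siFOXD3 replicate 2, and was not listed in the other siFOXD3 libraries, so the targeted gene lay near the detection limit throughout. WDR5 and SET, the other genes of the study's title, were called higher. WDR5 went from a siNC mean of 20.1 ± 1.13 FPKM to 34.0 ± 1.63 FPKM (SD, n = 3). SET went from 217 ± 8.26 to 318 ± 7.60 FPKM. The 10 A549 and epithelial markers examined were all at 1 FPKM or more, with summed levels of 6477 to 7375 FPKM in siNC and 9647 to 9668 FPKM in siFOXD3. The protocol text names retina as the extracted tissue, whereas none of 12 retinal markers reached 1 FPKM in any library, 5 of them were listed in no library (RCVRN, SAG, GNAT1 and OPN1SW among them), and their summed level was 0.941 to 1.60 FPKM in siNC and 1.02 to 1.47 FPKM in siFOXD3. Leukocyte markers summed to 74.5 to 84.8 FPKM in siNC and 67.5 to 68.6 FPKM in siFOXD3, with 3 and 2 of 8 at 1 FPKM or more. Fibroblast and endothelial markers summed to 6.32 to 7.79 and 4.99 to 5.55 FPKM, with 2 of 8 at 1 FPKM or more in each group and DCN and LUM listed in no library. The part of other cells in the differences below was not tested.

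Most core spliceosome genes were higher in siFOXD3. All 52 passed the filter of at least 1 FPKM in at least 3 libraries, and limma on log2(FPKM + 1), with Benjamini-Hochberg adjustment over the 12555 genes tested and a threshold of 0.05, called 34 higher and 4 lower. Of all genes tested, 27.2% were called higher, 38.7% lower and 65.9% either way, against 65.4% of the core genes higher and 7.69% lower. The median log2 fold change of the core genes was 0.31 and that of all genes -0.08, a difference of 0.39, which was 0.19 after quantile normalization and 0.40 after median-of-ratios scaling. Quantile normalization moved the all-gene median by 0.10, to 0.03, and lower genes made up 47.4% of all calls under it, where they made up 58.7% without it. The siNC and siFOXD3 values did not overlap for 35 core genes that were higher and 5 that were lower, where 29.6% of all genes were higher without overlap, 41.1% lower and 70.7% either way. In bulk RNA, a change in the share of cells of a type and a change in RNA per cell cannot be told apart.

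**Figure D1:**
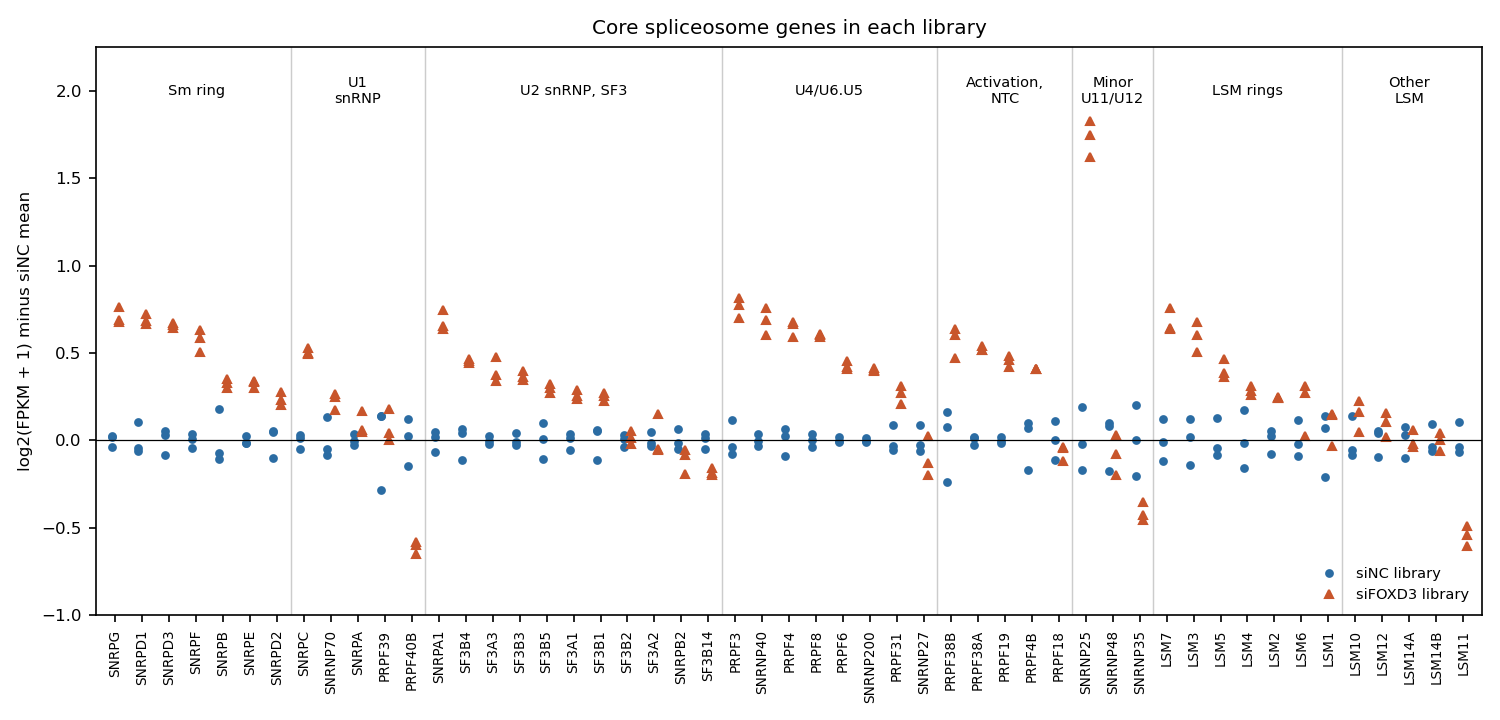
Value of 51 core spliceosome genes in every library, as log2(FPKM + 1) minus the mean of the 3 siNC libraries, with genes on the horizontal axis grouped by role. Circles are siNC libraries and triangles siFOXD3 libraries; in 34 of them all triangles lie above all circles, and in 5 genes (PRPF40B, SNRPB2, SF3B14, SNRNP35 and LSM11) all lie below.

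The core genes were well expressed. Their mean level in siNC ran from 3.49 FPKM (LSM11) to 344 FPKM (SNRPD2), with a median of 37.3 FPKM, where the median of all tested genes was 11.3 FPKM, and 47 of 52 exceeded 10 FPKM in every library. The changes were moderate: 15 core genes had a log2 fold change of at least 0.5, only SNRNP25 exceeded 1 in size, and 18 lay between -0.25 and 0.25. The coefficient of variation between libraries had a median of 6.05% in siNC and 3.41% in siFOXD3 over the core genes, and of 7.75% and 5.71% over all tested genes. Across the core genes, the log2 fold change had a Spearman rho of 0.26 with mean level and -0.01 with the length of the longest coding transcript (over all tested genes 0.25 with level). These are descriptions across genes of the same libraries, and genes are not independent replicates.

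**Figure D2:**
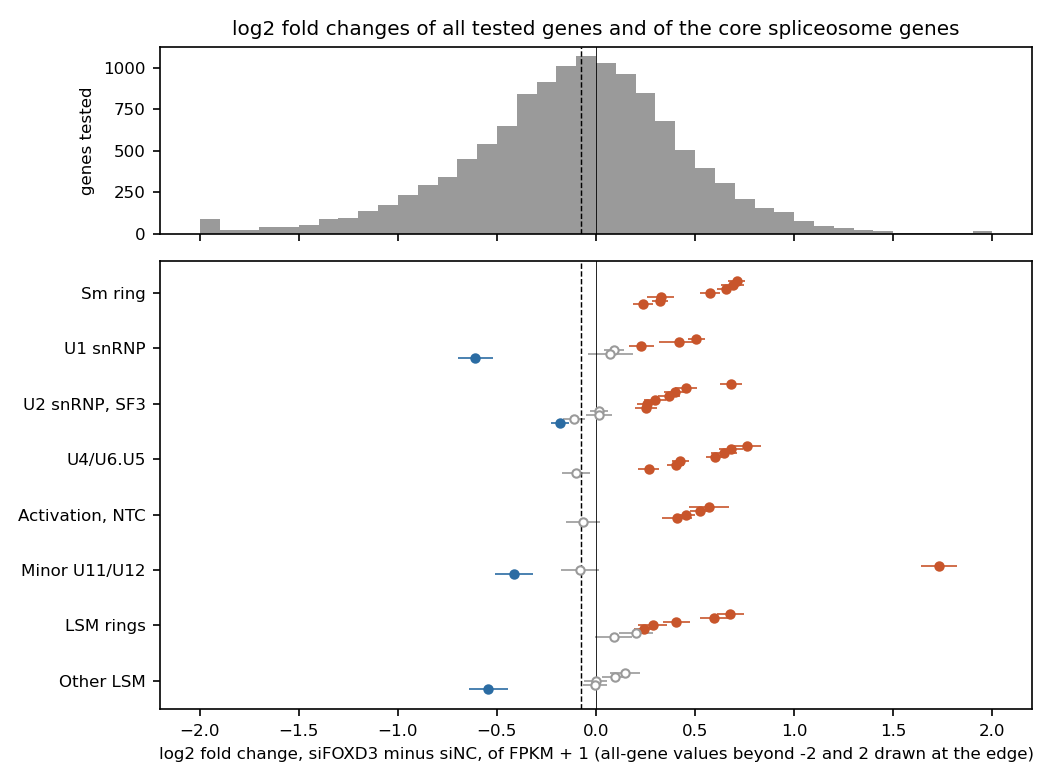
The upper panel is a histogram of the log2 fold change (siFOXD3 minus siNC, of FPKM + 1) of the 12555 genes tested, and the lower panel gives each core gene by role with its standard error. Orange points were called higher, blue lower and open points neither; the dashed line marks the all-gene median of -0.08, and 45 of the 52 core genes lie to its right.

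The Sm ring rose as a whole. Its proteins, SmB, SmD1 to SmD3, SmE, SmF and SmG, close around a uridine-rich site of the snRNA and are needed for every major snRNP apart from U6. All 7 genes were called higher, where 27.2% of all genes tested were, with a median log2 fold change of 0.58. Their summed level was 1126 to 1242 FPKM in the siNC libraries and 1578 to 1609 FPKM in the siFOXD3 libraries. SNRPG stood at 189.8, 189 and 181 FPKM in siNC and 299, 302 and 318 FPKM in siFOXD3, a log2 fold change of 0.71 ± 0.04 (SE, n = 3 each; limma, Benjamini-Hochberg adjusted p = 4.99e-07). SNRPD1 stood at 36.5, 32.4 and 32.9 FPKM in siNC and 54.4, 54.9 and 56.6 FPKM in siFOXD3 (0.69 ± 0.06). For both genes every siFOXD3 library lay far above every siNC library. SNRPD3 was at 86.5, 78.8 and 85.2 FPKM in siNC and 131, 132 and 134 FPKM in siFOXD3 (0.66 ± 0.05). SNRPF stood at 134, 127 and 131 FPKM in siNC and 203, 197 and 186 FPKM in siFOXD3 (0.58 ± 0.05).

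The rest of the ring rose by less. SNRPE was at 116, 113 and 113 FPKM in siNC and 141, 144 and 144 FPKM in siFOXD3 (0.32 ± 0.04). SNRPB, which encodes SmB, was at 324, 266 and 272 FPKM in siNC and 365, 352 and 359.8 FPKM in siFOXD3 (0.33 ± 0.07), so siNC replicate 1 lay closest to the siFOXD3 libraries. SNRPD2, the most abundant core gene, was at 355, 320.3 and 357 FPKM in siNC and 416, 395 and 403 FPKM in siFOXD3 (0.24 ± 0.05; limma, Benjamini-Hochberg adjusted p = 0.00202, the largest in the ring). After quantile normalization the log2 fold changes of SNRPB, SNRPE and SNRPD2 were 0.21, 0.21 and 0.13, all still called. Sm messages have processed pseudogenes that can share reads: GENCODE 29 names 20 for SNRPG, 9 for SNRPE, 4 for SNRPF, 2 for SNRPD2 and 1 for SNRPB, so the levels of these genes are uncertain to that extent. Of the 13 core genes with a named pseudogene 10 were called higher and none lower, and of the 39 without one 24 were called higher and 4 lower.

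Since the Sm genes moved together, their start regions were read from RefSeq's promoter table (GRCh38.p14, another build than the hg19 of the files), which runs from 250 bases before to 50 after each start and matched 42 of the 52 core genes, SF3B14 under its current symbol SF3B6; the 10 without an entry included PRPF4B, LSM6, LSM1, SNRNP35, LSM14A, SNRPD1, PRPF39, SF3B3 and PRPF3. The letters CCGGAAG, the core of an ETS-type site, were found on either strand in 18 of the 42 (42.9%), in 22.7% of tested genes with an entry and in 12.2% of all genes in the table. They were in 4 of 6 Sm ring genes and in 8 of 10 U2 and SF3 genes, and by call in 12 of 29 core genes called higher, 5 of 10 not called and 1 of 3 called lower. The E-box CACGTG, which MYC and related factors bind, was in 2 of 42 (4.76%), against 12.7% of tested genes and 8.77% of all genes in the table. The forkhead-like letters TGTTTAC were in 1 of 42 (2.38%, SNRNP27), against 3.46% of tested genes and 4.19% of all genes in the table. TTTGTTT was in 0 of 42, against 7.25% and 9.88%. The GC box GGGCGG was in 28 of 42 (66.7%), below the 78.0% of tested genes and above the 48.3% of all genes in the table. Both strands were searched for each motif, no motif is contained in another though the forkhead-like pair can share letters, and a match is a description of letters in this window, not a binding site. The regions of 3 Sm genes are shown with the ETS-type letters in capitals (CTTCCGG is the same motif on the other strand), followed by those of SNRNP25 and PRPF40B, the core genes with the highest and the lowest log2 fold change of FPKM + 1, which hold none (by the ratio of mean FPKM, LSM11 fell further). In order, they lie at chr2:70293409-70293708 (- strand), chr20:2470740-2471039 (- strand), chr19:45692267-45692566 (- strand), chr16:53578-53877 (+ strand) and chr12:49623311-49623610 (+ strand). Where a gene has several listed starts the first is shown, and a gene was counted if any of its starts held the letters. The other listed starts of SNRPD2 held no ETS-type letters. Among the Sm genes with an entry that are not shown, SNRPE held them and SNRPD3 and SNRPF did not.
SNRPG: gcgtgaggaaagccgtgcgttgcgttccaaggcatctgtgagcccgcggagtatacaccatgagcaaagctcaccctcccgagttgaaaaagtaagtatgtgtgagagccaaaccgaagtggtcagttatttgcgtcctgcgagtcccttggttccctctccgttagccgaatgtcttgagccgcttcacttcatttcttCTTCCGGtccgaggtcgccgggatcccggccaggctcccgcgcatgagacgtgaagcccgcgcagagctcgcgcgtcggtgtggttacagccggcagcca
SNRPB: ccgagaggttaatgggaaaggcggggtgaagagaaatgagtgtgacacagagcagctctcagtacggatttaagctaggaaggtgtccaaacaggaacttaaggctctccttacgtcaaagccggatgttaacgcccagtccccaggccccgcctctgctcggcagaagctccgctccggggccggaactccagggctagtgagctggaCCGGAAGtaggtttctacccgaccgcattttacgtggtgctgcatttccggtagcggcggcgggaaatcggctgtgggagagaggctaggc
SNRPD2: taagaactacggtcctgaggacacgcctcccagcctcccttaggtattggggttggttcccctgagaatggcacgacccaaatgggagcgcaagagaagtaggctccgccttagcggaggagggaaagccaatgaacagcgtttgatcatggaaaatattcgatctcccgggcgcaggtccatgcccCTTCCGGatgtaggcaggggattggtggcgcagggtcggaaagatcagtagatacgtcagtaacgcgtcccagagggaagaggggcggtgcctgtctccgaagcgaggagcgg
SNRNP25: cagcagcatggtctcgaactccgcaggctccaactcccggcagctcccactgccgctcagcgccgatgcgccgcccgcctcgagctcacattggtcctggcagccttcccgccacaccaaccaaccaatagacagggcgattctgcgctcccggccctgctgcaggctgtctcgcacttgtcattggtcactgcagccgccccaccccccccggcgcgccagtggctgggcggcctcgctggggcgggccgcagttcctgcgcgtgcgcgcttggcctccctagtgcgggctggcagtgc
PRPF40B: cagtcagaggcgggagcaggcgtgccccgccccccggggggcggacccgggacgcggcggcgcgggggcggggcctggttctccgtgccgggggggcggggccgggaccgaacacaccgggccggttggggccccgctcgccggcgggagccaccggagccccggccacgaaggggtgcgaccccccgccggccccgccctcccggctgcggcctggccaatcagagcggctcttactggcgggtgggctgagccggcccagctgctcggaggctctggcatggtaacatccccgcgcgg

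U1 snRNP genes were mixed. Of 6 specific or associated genes 3 were called higher, 1 lower and 2 neither way, with a median log2 fold change of 0.16. The shares over all genes tested were 27.2% higher, 38.7% lower and 65.9% either way, with a median of -0.08. SNRPC, the C protein of U1 that stabilizes pairing with the start of the intron, was at 113, 108 and 114 FPKM in siNC and 161, 157 and 158 FPKM in siFOXD3 (0.51 ± 0.04). GENCODE 29 names 18 pseudogenes for it. SNRNP70, the U1-70K scaffold protein, was at 83.7, 71.7 and 73.5 FPKM in siNC and 91.6, 90.6 and 86.1 FPKM in siFOXD3 (0.23 ± 0.06). SNRPA, the A protein of U1 that binds a stem loop of U1 RNA, was at 64.2, 62.4 and 61.5 FPKM in siNC and 65.3, 64.9 and 70.5 FPKM in siFOXD3; its groups did not overlap, but the log2 fold change of 0.09 ± 0.05 was not called (limma, Benjamini-Hochberg adjusted p = 0.137), except with median-of-ratios scaling (0.18, adjusted p = 0.013).

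The U1-associated factors PRPF39 and PRPF40B are named for yeast proteins that help U1 engage the intron. PRPF40B fell, from 9.27, 8.08 and 9.95 FPKM in siNC to 5.66, 5.43 and 5.73 FPKM in siFOXD3 (-0.61 ± 0.09; limma, Benjamini-Hochberg adjusted p = 0.000137). Every siFOXD3 library lay below every siNC library. PRPF39 was at 10.98, 15.1 and 15.1 FPKM in siNC and 13.99, 15.5 and 13.6 FPKM in siFOXD3, with overlapping groups and no call (0.07 ± 0.11). In PRPF39 siNC replicate 1 lay well below the other siNC libraries. Over 10929 genes with a transcript length, the deviation of siNC replicate 1 from its group mean had a Spearman rho of -0.256 with length, where siNC replicates 2 and 3 had 0.175 and 0.147 and the siFOXD3 libraries -0.087 to 0.083; its part in these values was not tested.

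Among the 11 genes of the U2 snRNP and of SF3a and SF3b, the complexes that hold U2 on the branch point, 7 were called higher, 1 lower and 3 neither way, with a median of 0.26. All genes tested were 27.2% higher and 38.7% lower. SNRPA1, the A′ protein of U2, rose most, from 37.8, 37.2 and 34.9 FPKM in siNC to 57.5, 58.3 and 62.1 FPKM in siFOXD3 (0.68 ± 0.05; limma, Benjamini-Hochberg adjusted p = 2.63e-06). Its partner on U2 RNA, SNRPB2 (the B″ protein), did not follow: it was at 49.6, 52.4 and 48.5 FPKM in siNC and 43.7, 47.3 and 48.2 FPKM in siFOXD3, with no overlap and no call (-0.11 ± 0.06, adjusted p = 0.11), except after quantile normalization (-0.17, adjusted p = 0.0199). In SF3a, SF3A3 rose from 38.6, 37.5 and 37.9 FPKM to 48.4, 53.2 and 49.6 FPKM (0.40 ± 0.05). SF3A1 rose from 36.1, 35.5 and 33.8 FPKM to 42.0, 43.1 and 41.5 FPKM (0.26 ± 0.05). The third subunit, SF3A2, was at 30.2, 29.8 and 31.6 FPKM in siNC and 34.0, 29.3 and 29.4 FPKM in siFOXD3, with overlapping groups. The log2 difference of SF3A2 minus SF3A3 went from -0.31 ± 0.05 in siNC to -0.69 ± 0.18 in siFOXD3 (SD, n = 3), a change of -0.38 ± 0.11 (SE; two-sided exact permutation p = 0.1, the smallest that 3 against 3 allow, and 0.2 after Benjamini-Hochberg adjustment over 4 pairs).

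In SF3b, SF3B1, the large subunit that contacts the branch point and is mutated in several blood cancers, was at 71.5, 80.2 and 80.7 FPKM in siNC and 92.4, 93.6 and 90.7 FPKM in siFOXD3 (0.25 ± 0.06). SF3B4 rose by 0.45 ± 0.06, SF3B3 by 0.37 ± 0.06 and SF3B5 by 0.30 ± 0.06, each without overlap of the groups. SF3B2 was at 96.4, 95.0 and 91.8 FPKM in siNC and 95.3, 98.1 and 93.2 FPKM in siFOXD3 (0.02 ± 0.05, not called). SF3B14, which encodes the p14 subunit that sits next to the branch-point adenosine, was lower in every siFOXD3 library: it was at 130.4, 139 and 136 FPKM in siNC and 119, 118 and 121 FPKM in siFOXD3 (-0.18 ± 0.04; limma, Benjamini-Hochberg adjusted p = 0.00475). It lost its call with median-of-ratios scaling (-0.09, adjusted p = 0.093) and stood at -0.29 after quantile normalization.

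Tri-snRNP genes rose nearly throughout. Of 8 genes 7 were called higher and none lower, where 27.2% of all genes tested were higher and 38.7% lower. Their median was 0.51. PRPF3, which joins U4 and U6, was at 18.4, 20.7 and 17.9 FPKM in siNC and 34.2, 31.4 and 33.2 FPKM in siFOXD3 (0.76 ± 0.07; limma, Benjamini-Hochberg adjusted p = 4.9e-06). Its partner PRPF4 was at 13.9, 12.4 and 13.5 FPKM in siNC and 20.4, 21.6 and 21.8 FPKM in siFOXD3 (0.65 ± 0.07), so both partners rose. SNRNP40, a U5 protein, rose from 15.8, 15.3 and 14.99 FPKM to 25.4, 23.9 and 26.7 FPKM (0.68 ± 0.06). PRPF8, the large U5 protein at the heart of the catalytic centre, was at 61.5, 62.9 and 59.8 FPKM in siNC and 94.3, 93.7 and 93.1 FPKM in siFOXD3 (0.60 ± 0.04). SNRNP200, the Brr2 helicase that unwinds U4 from U6, was at 102, 100.4 and 101 FPKM in siNC and 135, 133 and 134 FPKM in siFOXD3 (0.40 ± 0.04). In both of these large U5 genes the libraries of a group were tightly spaced, with the groups far apart. PRPF6, a bridge between U5 and U4/U6, rose by 0.43 ± 0.05 and PRPF31, which binds the U4 RNA and is mutated in a form of retinal degeneration, by 0.26 ± 0.06. The exception was SNRNP27, at 25.9, 28.8 and 26.5 FPKM in siNC and 24.6, 23.5 and 27.6 FPKM in siFOXD3, with overlapping groups (-0.10 ± 0.07, adjusted p = 0.242).

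Factors of activation and catalysis mostly rose as well, 4 of 5 against 27.2% of all genes tested, with a median of 0.45. PRPF19, the ubiquitin ligase that names the complex acting at activation, was at 109, 112 and 109.7 FPKM in siNC and 152, 154 and 147 FPKM in siFOXD3 (0.45 ± 0.04). PRPF38A and PRPF38B rose by 0.52 ± 0.05 and 0.57 ± 0.10. The kinase PRPF4B was at 13.5, 16.1 and 16.5 FPKM in siNC and 20.6, 20.6 and 20.7 FPKM in siFOXD3 (0.41 ± 0.08). The PRPF38A and PRPF38B responses differed by -0.05 ± 0.13 (SE; exact permutation p = 1), a standard error that leaves room for a difference of moderate size. PRPF18, which acts in the second catalytic step, was at 7.01, 7.67 and 6.41 FPKM in siNC and 6.395, 6.80 and 6.78 FPKM in siFOXD3 and was not called (-0.07 ± 0.08).

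**Figure D3:**
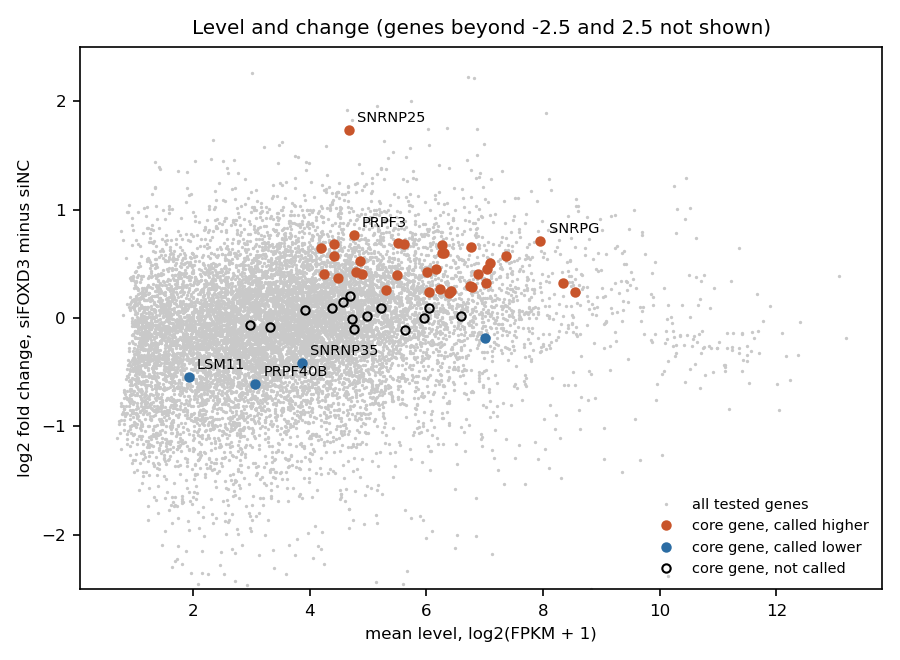
Mean level over both groups (horizontal axis, log2(FPKM + 1)) against log2 fold change (vertical axis) for all tested genes in grey and the core spliceosome genes in colour. SNRNP25 stands alone at the top with 1.73, and of the 4 genes called lower LSM11, PRPF40B and SNRNP35 lie at the lower levels.

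The minor spliceosome proteins diverged more than any other group of core genes by range, from -0.41 to 1.73. SNRNP25, a protein of the U11/U12 particle, was at 12.4, 10.6 and 9.49 FPKM in siNC and 38.6, 40.8 and 35.2 FPKM in siFOXD3, 3.52 times the siNC mean (log2 fold change 1.73 ± 0.09; limma, Benjamini-Hochberg adjusted p = 1.99e-07), above 99.8% of all tested genes. SNRNP35, the U11 counterpart of U1-70K, fell from 18.0, 15.6 and 13.4 FPKM in siNC to 11.1, 11.3 and 11.9 FPKM in siFOXD3 (-0.41 ± 0.10, adjusted p = 0.00336). SNRNP48, which is also in the U11/U12 particle, was at 8.05, 9.94 and 9.82 FPKM in siNC and 8.68, 9.46 and 7.92 FPKM in siFOXD3, with overlapping groups. The order within this particle therefore went from SNRNP25 far up, through SNRNP48 without a call, to SNRNP35 down. Both called genes share exon sequence with a gene on the other strand in GENCODE 29, and the use of strand is not given in the sources used here. POLR3K, which overlaps SNRNP25, was at 22.0, 19.1 and 19.6 FPKM in siNC and 40.4, 47.9 and 37.7 FPKM in siFOXD3 (1.01 ± 0.09). RILPL1, which overlaps SNRNP35, was at 6.25, 8.26 and 7.36 FPKM in siNC and 3.29, 3.804 and 3.03 FPKM in siFOXD3 (-0.92 ± 0.11). Where such a pair shares exon sequence, reads may not be assignable to 1 gene if strand was not used. How much of each level this covers was not measured. Of the 52 core genes, 19 share exon sequence with another coding gene in this annotation, LSM7, LSM3 and PRPF4 among them. For SNRPD3, SNRPB, SNRNP27 and PRPF18 such a gene lies on the same strand, where use of strand would not separate the reads. Of 5 other minor spliceosome proteins none was called higher and 2 were called lower: PDCD7 (10.4 ± 0.394 to 7.08 ± 0.884 FPKM, SD, n = 3; -0.51) and RNPC3 (7.84 ± 1.23 to 5.39 ± 0.392 FPKM; -0.46, and -0.30 with a pseudocount of 5 or after quantile normalization). That count of lower genes was near the share over all genes tested, which was 38.7% lower and 27.2% higher.

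LSM ring genes rose in part. LSM2 to LSM8 form the ring on U6 RNA, and the ring of LSM1 to LSM7 acts with the decapping enzymes on messages in the cytoplasm. Of the 7 genes LSM1 to LSM7, 5 were called higher and none lower, where 27.2% of all genes tested were higher and 38.7% lower. The median of the 7 was 0.29. LSM7 was at 57.7, 53.4 and 63.4 FPKM in siNC and 91.1, 98.8 and 90.6 FPKM in siFOXD3 (0.68 ± 0.07; limma, Benjamini-Hochberg adjusted p = 1e-05). LSM3 was at 65.6, 61.0 and 54.7 FPKM in siNC and 92.1, 97.0 and 86.0 FPKM in siFOXD3 (0.60 ± 0.07). LSM5 rose by 0.41 ± 0.07. LSM4 rose by 0.29 ± 0.07 and LSM2 by 0.24 ± 0.05; LSM2 lies in the major histocompatibility region and had 6 rows in each file, which were summed. LSM6 was at 24.9, 22.5 and 21.4 FPKM in siNC and 28.6, 27.8 and 23.3 FPKM in siFOXD3; siFOXD3 replicate 3 fell within the siNC range, and the gene missed the threshold (0.20 ± 0.09, adjusted p = 0.0582), while 6 of 16 alternative settings called it. LSM1, found only in the cytoplasmic ring, was at 16.3, 20.04 and 21.0 FPKM in siNC and 21.1, 18.6 and 21.2 FPKM in siFOXD3 and was not called (0.09 ± 0.09).

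The nuclear-ring gene LSM8 did not match the family rule, because these files list both LSMD1 and NAA38, and RefSeq gives NAA38 as an older name of LSM8 and LSMD1 as that of the present NAA38. Under the name NAA38 the files list 3.57, 4.18 and 4.16 FPKM in siNC and 3.19, 3.44 and 3.48 FPKM in siFOXD3. Its groups did not overlap, and it was not called (-0.18 ± 0.09, adjusted p = 0.106). This gene was added after its values were seen. Among 8 decapping partners of the cytoplasmic ring, 2 were called higher, EDC4 (0.39 ± 0.07) and the helicase DDX6 (0.34 ± 0.06), and 2 lower, PATL1 (-0.29 ± 0.06) and the exonuclease XRN1 (-0.36 ± 0.11). Over all genes tested the shares were 27.2% higher and 38.7% lower. XRN1 lost its call after quantile normalization (adjusted p = 0.0852) and without siNC replicate 2, siNC replicate 3 or siFOXD3 replicate 2 (0.0587, 0.069 and 0.0556).

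Of the 5 remaining LSM genes none was called higher and 1 was called lower, where 27.2% of all genes tested were higher and 38.7% lower. LSM10 and LSM11 replace SmD1 and SmD2 in the ring of the U7 snRNP, which cuts the ends of histone messages. LSM11 fell from 3.38, 3.28 and 3.82 FPKM in siNC to 2.20, 1.95 and 2.09 FPKM in siFOXD3 (-0.54 ± 0.10; limma, Benjamini-Hochberg adjusted p = 0.000658), and its log2 fold change was -0.26 with a pseudocount of 5 and -0.27 after quantile normalization. LSM10 was at 20.6, 23.7 and 20.1 FPKM in siNC and 24.1, 22.2 and 25.2 FPKM in siFOXD3, with overlapping groups (0.14 ± 0.08, not called). It was called higher with median-of-ratios scaling (0.23, adjusted p = 0.019) and without siNC replicate 2 (0.21, adjusted p = 0.0275). The log2 difference of LSM10 minus LSM11 went from 2.32 ± 0.20 in siNC to 3.01 ± 0.07 in siFOXD3 (SD, n = 3), a change of 0.69 ± 0.12 (SE; exact permutation p = 0.1, adjusted over pairs 0.2; 0.39 with a pseudocount of 5). LSM12 (0.09 ± 0.06) was not called, except with median-of-ratios scaling (0.18, adjusted p = 0.0306). LSM14A and LSM14B were not called either; these proteins bind messages in cytoplasmic granules, and their log2 fold changes were -0.0015 ± 0.06 and -0.0051 ± 0.06. The responses of LSM14A and LSM14B differed by 0.0036 ± 0.10 (SE; exact permutation p = 1).

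**Figure D4:**
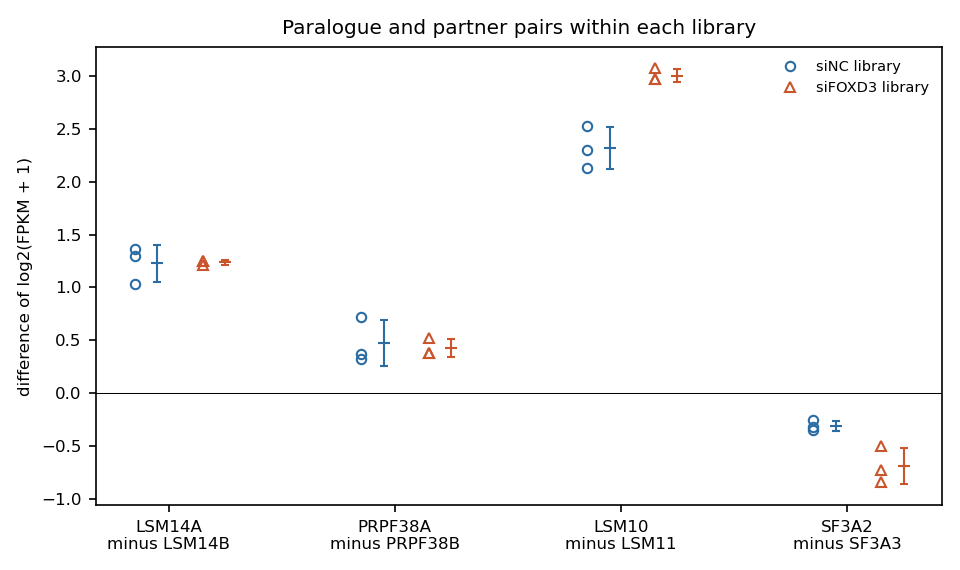
Difference of log2(FPKM + 1) between the members of 4 pairs within each library, with siNC libraries as circles, siFOXD3 libraries as triangles, and the mean and SD of each group (n = 3) beside them. The groups are apart for LSM10 minus LSM11 and SF3A2 minus SF3A3, and overlap for LSM14A minus LSM14B and PRPF38A minus PRPF38B.

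Other genes of the pathway were read from 7 lists by function, 85 genes that all passed the filter. Of these 48 were called higher and 11 lower (7 lower without siNC replicate 2 and 7 without siNC replicate 3), with a median of 0.24. Beside these and each list below, the shares over all genes tested were 27.2% higher and 38.7% lower, with a median of -0.08. Of 19 genes of snRNP assembly and import, which load the Sm ring onto RNA, 12 were called higher and 2 lower. WDR77 (23.7 ± 2.31 to 47.6 ± 1.83 FPKM, SD, n = 3; log2 fold change 0.98), the partner of the arginine methyltransferase PRMT5 that modifies Sm tails, GEMIN4 of the SMN complex (12.2 ± 0.728 to 23.4 ± 0.272 FPKM; 0.89) and the cap-binding protein NCBP1 (0.76) rose most. CLNS1A, the chaperone that holds Sm proteins before assembly, fell from 102 ± 7.01 to 80.9 ± 4.30 FPKM (-0.33), opposite to the Sm ring genes. GEMIN8, also called lower, was at -0.24, turned to 0.04 after quantile normalization, and lost its call there, with 2 other scalings and without siNC replicate 2, siNC replicate 3 or any siFOXD3 library (adjusted p between 0.0652 and 0.746).

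Among 20 other tri-snRNP and U2 factors 14 were called higher and none lower. U2AF2, which reads the pyrimidine tract before the end of the intron, rose from 85.3 ± 5.07 to 179.5 ± 6.34 FPKM (1.07), and its partner SF1, the branch-point binding protein, from 46.3 ± 1.24 to 81.5 ± 1.08 FPKM (0.80), with the U4/U6 cyclophilin PPIH at 0.73. Of 21 other factors of the PRPF19 complex and the catalytic steps 10 were called higher and 4 lower. PPIL1 (0.82), the disassembly helicase DHX15 (0.82) and BCAS2 (0.69) rose most, and XAB2 (-0.39), SLU7 (-0.37), SYF2 (-0.22) and DHX8 (-0.19) fell. SYF2 and DHX8 lost their calls with median-of-ratios scaling (adjusted p = 0.108 and 0.195), without siNC replicate 2 (0.0747 and 0.0698), without siNC replicate 3 (0.0536 and 0.0775), without siFOXD3 replicate 1 (0.0515 and 0.0961) and without siFOXD3 replicate 2 (0.0674 and 0.136), and DHX8 also after quantile normalization (0.204) and with every library scaled to the same total (0.0752).

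All 5 exon junction complex genes, whose protein complex is laid on messages by the spliceosome, were called higher, led by MAGOHB (12.7 ± 1.69 to 22.3 ± 1.53 FPKM, SD, n = 3; 0.78), the helicase EIF4A3 (51.7 ± 0.994 to 85.0 ± 2.46 FPKM; 0.71) and RBM8A (0.60). CASC3, also of the exon junction complex (0.22), lost its call without siFOXD3 replicate 1 (limma, Benjamini-Hochberg adjusted p = 0.0676). Of 7 partners of U7 in histone message processing 5 were called higher and 1 lower. Of the 5, ZNF473 lost its call without siFOXD3 replicate 1 (limma, Benjamini-Hochberg adjusted p = 0.0518). SLBP, the stem-loop binding protein of histone messages, rose from 24.9 ± 1.45 to 50.4 ± 3.63 FPKM (0.99), CSTF2 by 0.87 and CPSF2 by 0.63, while the scaffold SYMPK fell by 0.32. No list was tested as a set.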

How the data were processed

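RNA sequencing of A549 cells gave 3 siNC and 3 siFOXD3 libraries, which were grouped by title. The values deposited are FPKM per gene symbol, per the file headers. The authors' tools were TopHat and Cufflinks and the build was hg19, per the submitters' processing notes; for their versions, the annotation and strand use, the sources used here give nothing. Rows of a symbol were summed and an absent symbol was set to 0. Log2(FPKM + 1) was fitted with limma 3.58.1 in R 4.3.3 (trend and robust eBayes, group only) over genes with at least 1 FPKM in at least 3 libraries; a fold change is a difference on that scale, so changes of low genes are understated. Depth, not given in the files, was estimated from the spacing of low values in 856 genes that have 1 coding transcript in GENCODE 29; on simulated libraries the estimate was within 4.9%, and it covers counting only. The fit was tested on simulated data. Other steps used Python 3.11.15, pandas 2.3.3, numpy 2.4.6, scipy 1.17.1 and matplotlib 3.10.9.

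Named genes were every core gene but 1, which is counted in the totals and not reported here, FOXD3, WDR5 and SET, and of each pathway list up to 3 called genes with the largest change and those called in the minority direction. The members, lists and motifs were chosen with earlier results of these data known. Alternatives covered pseudocount, filter, scaling, rows of a symbol, limma's variance model, the replicate number as a block, and leaving out each library.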

Additional observations from a re-analysis of the deposited data

How the results depend on the processing

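Under 16 alternative settings, 34 to 38 core genes were called higher and 3 to 5 lower, and 37 of the 38 called core genes, 34 of them higher, were called in the same direction wherever they were tested; the exception was SF3B14. With at least 5 FPKM required, LSM11 was no longer tested. The median log2 fold change of the core genes was 0.40 with median-of-ratios scaling, 0.22 after quantile normalization and 0.33 with every library scaled to the same total, and 0.29 to 0.33 with 1 library left out. Lower genes made up 58.7% of all calls on the values as given, 47.4% after quantile normalization and 50.1% when scaled by median of ratios. Quantile normalization turned GEMIN8 to 0.0354 and the ZRSR2 log2 fold change (a minor spliceosome gene, at -0.0001 without it and not called) to 0.2512; the cause was not tested. The count of pathway genes called lower was 7 to 11 with 1 library left out. With a pseudocount of 5, the change of LSM10 minus LSM11 was 0.39, and with a pseudocount of 0.1 it was 0.87.

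The labels do not say what a shared replicate number stands for, and the numbers were not taken as pairs: deviations from the group means correlated across genes at 0.061, 0.163 and 0.115 for numbers 1 to 3, and each library correlated best with its own number, a hint from the data and not from the design. With the replicate number as a block, 35 core genes were called higher and 4 lower, LSM6 being the addition (adjusted p = 0.0212), and among the named pathway genes DHX8 and GEMIN8 lost their calls (0.055 and 0.0628). The planned pair of LSM1 with LSM8 was not run, since no file lists the symbol LSM8. Depth is an estimate, and what it limits was not measured gene by gene.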
